A study of Mus musculus with 48 samples.

Results

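T11 and AT3 are mouse mammary tumour lines, and 6 of the 48 RNA-seq libraries of the series, 3 of each line, measured them as cultured cells. The pair was chosen by measured values of this same contrast, the number of genes called. Of the 28 pairs among the 8 cultured lines, it had the second lowest number of genes called different, although the table's column names put T11 with the lines marked Mes and AT3 with those marked Epi. The count that chose it was 7048 of 18348 tested genes, or 38.4%. The pair before it, E0771 and PyMT-M, had 1232, and the pair after it, AT3 and 4T1, had 7080. The line contrast is therefore given as a description, with no test of its own.

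Both lines were grown in high-glucose DMEM with fetal bovine serum, penicillin, streptomycin and amphotericin B, and the same number of cells was seeded per well before total RNA was taken. T11 is labelled BALB/C and passage 15 to 20, and AT3 is labelled C57BL/6 and passage 15, so the effects of line, strain and passage cannot be told apart. As background, T11 descends from a mammary tumour without Trp53 and AT3 from a tumour driven by the polyomavirus middle T antigen. The labels name no treatment for either line. The labels do not say whether the 3 libraries of a line came from separate cultures, so their spread may be technical. Sorted neutrophils were live CD45+ CD11b+ Ly6G+ with medium to low Ly6C, and sorted macrophages were live CD45+ CD11b+ Ly6G- Ly6C- F4/80+. Both came from T11 tumours in BALB/C and AT3 tumours in C57BL/6, 3 libraries of each. They compare myeloid cells of the same 2 tumour models, not the tumour cells, and differ in strain as the lines do.

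Epithelial tumour cells can take up a mesenchymal state in which keratins and cell junction proteins fall and vimentin, collagens and motility genes rise. Signals of the TGF-beta and BMP families, the YAP and AP-1 factors and loss of p53 are all known to act on that state. Type I interferon signalling switches on a separate set of antiviral and antigen presentation genes, and tumour cells also release the chemokines and growth factors that draw neutrophils and macrophages.

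Levels are in CPM, the usual scaling of counts to library size, here with TMM factors unless stated. A difference is log2 of T11 over AT3 with its standard error (SE), so a positive value is higher in T11. A gene was called where the adjusted p of the edgeR quasi-likelihood fit over all 24 line libraries was below 0.05. Total counts ran from 2058329 to 3489631 in T11 and from 3403334 to 6185535 in AT3 libraries. Genes for olfactory and vomeronasal receptors, which stand for background, took 1055 to 1370 CPM in T11 and 1487 to 2705 in AT3. These summed receptor levels were scaled to counts outside the ribosomal RNA gene Rn45s, without TMM factors, unlike the levels of single genes. AT3 library 1 had the highest receptor level of the 6. It was also the lowest and AT3 library 3 the highest AT3 library for 12 of the 12 genes that were most reduced in T11, and for 276 and 294 of the 386 genes above background that were called at least 2-fold lower; the part of library quality in this was not tested. Of the called genes 3946 (21.5% of those tested) were higher and 3102 (16.9%) lower in T11. When TMM factors were taken only from genes at least 10 times above the receptor background, the split turned to 3186 higher and 4404 lower and all differences moved by a median of -0.14. The median difference over all tested genes was -0.07. Differences of at least 2-fold were called for 1146 genes higher and 1161 lower.

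The widest differences lay in genes that 1 line expressed well and the other hardly at all. The plot of the largest differences by library shows 12 genes higher and 11 lower in T11, chosen among other things for not overlapping; over all tested genes 20.1% were called higher and 15.1% lower without overlap. Higher in T11, *Cd24a* stood at 241, 243 and 241 CPM in the T11 libraries and at 2.87, 1.15 and 2.5 CPM in the AT3 libraries, a difference of 6.88 ± 0.16. Cd24a is a surface protein of luminal and progenitor cells. For the stem cell transcription factor Sox2, in T11 cells *Sox2* measured 46, 48.7 and 40.7 CPM, against 0.22, 0.721 and 0.228 CPM in AT3 cells, a difference of 6.59 ± 0.32. Sox2 was at its highest in T11 among the 8 lines. *Timp3* stood at 286, 269 and 229 CPM in the T11 libraries and at 5.51, 4.04 and 3.87 CPM in the AT3 libraries; it encodes an inhibitor of metalloproteases and differed by 5.88 ± 0.15. *Pdpn* was counted at 2.42, 1.59 and 1.82 CPM in AT3 and at 101, 97.7 and 77.1 CPM in T11 cells, and the podoplanin it encodes marks lymphatic, fibroblast and invading tumour cells. Its difference was 5.59 ± 0.18. The lactate exporter gene *Slc16a3* stood at 193, 208 and 181 CPM in the T11 libraries and at 4.85, 4.32 and 4.1 CPM in the AT3 libraries. The mitochondrial carrier gene *Ucp2* stood at 128, 118 and 105 CPM in the T11 libraries and at 2.87, 2.88 and 3.41 CPM in the AT3 libraries. Every T11 library lay far above every AT3 library for both genes, and their differences were 5.45 ± 0.14 and 5.27 ± 0.16. The water channel gene Aqp5 (6.78 ± 0.18) and the proteoglycan gene Esm1 (5.89 ± 0.19) were also higher in T11. So was Eno1b (6.09 ± 0.16), a near copy of the enolase gene Eno1 whose reads the counting could have split.

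Among the genes lower in T11, reproductive homeobox genes of the X chromosome led. *Rhox5* was counted at 158, 206 and 246 CPM in AT3 and at 4.82, 5.71 and 2.37 CPM in T11 cells, a difference of -5.47 ± 0.17. The neighbouring copies Rhox2h (-7.04 ± 0.32) and Rhox2d (-6.55 ± 0.30) showed the same direction. The Rhox2 genes are near-identical copies whose reads the counting could have split. These homeobox factors are normally expressed in reproductive tissue, and AT3 had the highest level of all 3 among the 8 lines. Their expression was not particular to AT3. Mean Rhox5 was 203 CPM there, and PyMT-M (150 CPM), E0771 (131 CPM) and 67NR (92.8 CPM) also expressed it. It was low for PyMT-N (7.0 CPM), 4T1 (0.602 CPM) and 2208L (0.515 CPM). After AT3, Rhox2h and Rhox2d were highest for PyMT-M (14.9 and 16.8 CPM) and E0771 (15.7 and 19.2 CPM). *Sdpr* was counted at 263, 311 and 348 CPM in AT3 and at 3.21, 3.31 and 5.21 CPM in T11 cells, a difference of -6.35 ± 0.16; it encodes a caveola protein. The stromelysin gene *Mmp3* was counted at 81.3, 98.4 and 119.7 CPM in AT3 and at 3.54, 3.61 and 3.31 CPM in T11 cells (-4.82 ± 0.19). The dermatopontin gene *Dpt* was counted at 67.5, 76.7 and 97.2 CPM in AT3 and at 2.25, 2.11 and 1.89 CPM in T11 cells (-5.23 ± 0.24). Every T11 library lay far below every AT3 library for both genes. The interleukin 33 receptor gene Il1rl1 (-4.65 ± 0.16), the potassium channel subunit gene Kcnab2 (-4.85 ± 0.19) and Igfbp4 (-4.29 ± 0.13), which encodes a binding protein for insulin-like growth factors, were all lower in T11.

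**Figure D1:**
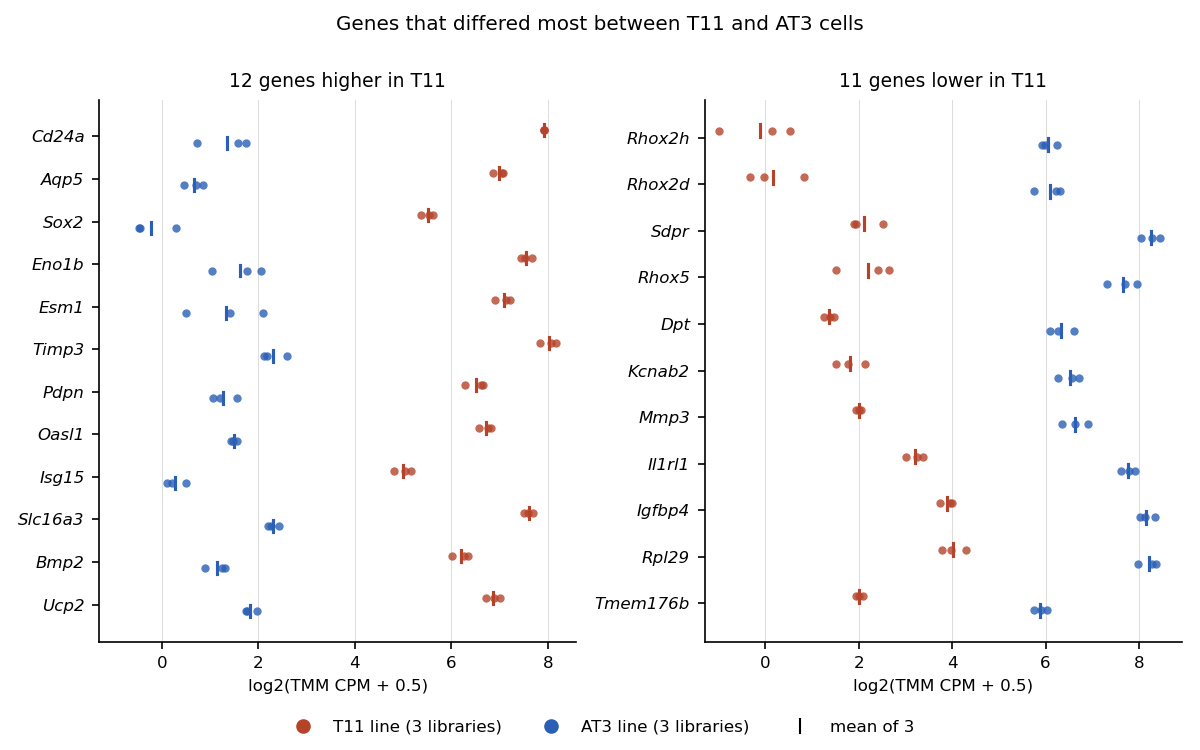
Each point is 1 library, T11 in red and AT3 in blue, on a log2 axis of CPM plus 0.5, and bars are means of 3 libraries; shown are 12 genes higher and 11 lower in T11 from those with the largest called differences and a mean log2 CPM of at least 4. The 3 libraries of a line lie close together and no gene has overlapping lines.

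Gene lists are described by counts against the shares of all tested genes, 21.5% higher and 16.9% lower. The bar chart of list counts orders the 30 lists by the balance of higher and lower members. Under the TMM factors from genes above background, the lists for MHC class I presentation, oxidative stress defence, and growth factors and receptor kinases turned from more members higher to more members lower, and collagens and integrins to equal numbers. The lists described next kept their majority under that scaling, RLE factors and DESeq2, apart from MHC class I presentation and collagens.

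**Figure D2:**
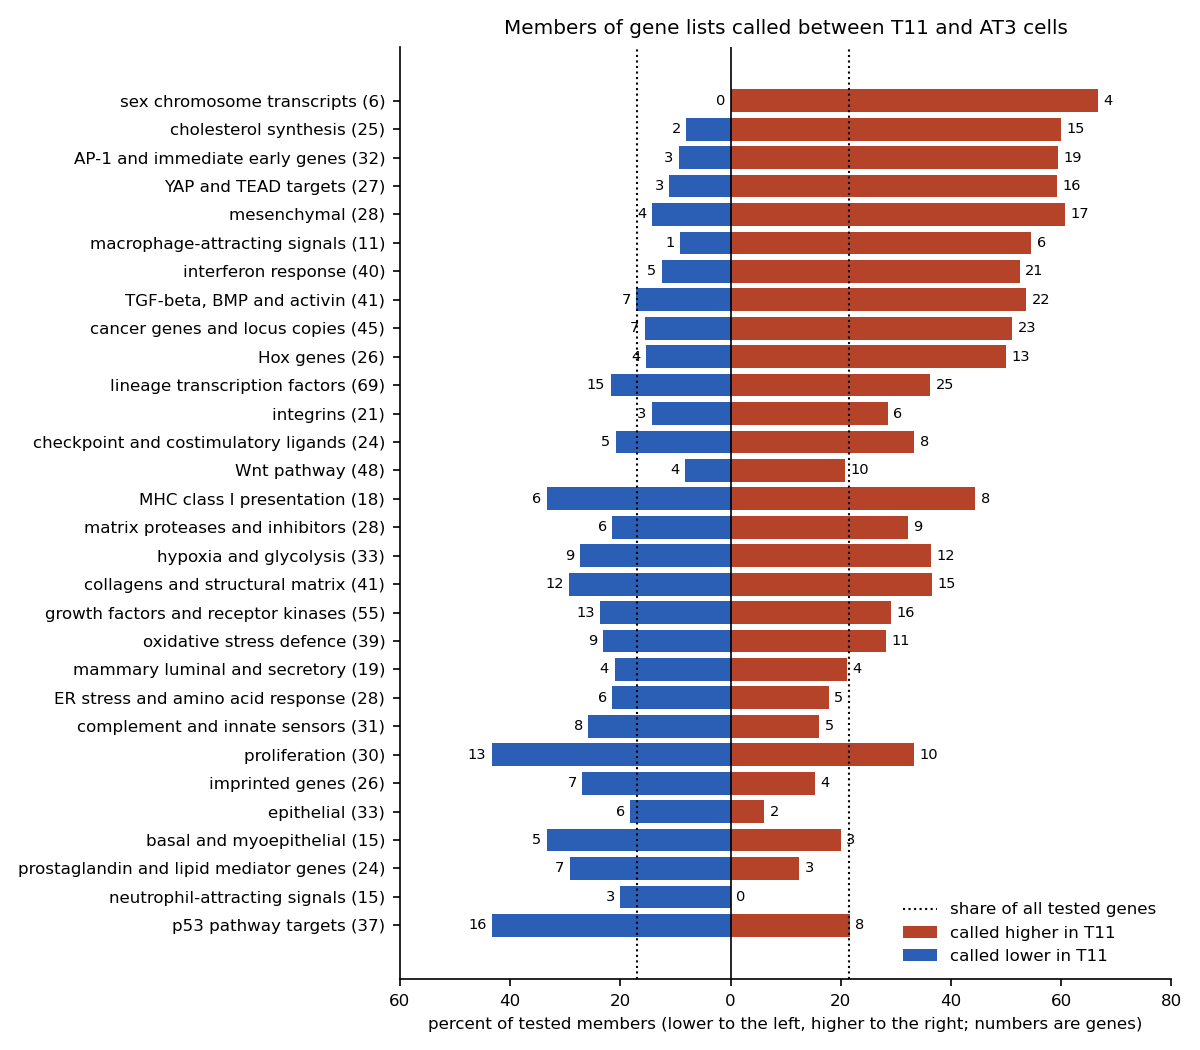
Bars give the percent of tested members of each list that were called higher in T11 (red, right) or lower in T11 (blue, left), numbers beside the bars are genes, numbers in brackets are members tested, and dotted lines are the shares over all tested genes. Cholesterol synthesis, AP-1, YAP and mesenchymal lists lean to T11, and p53 pathway targets lean to AT3.

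Of 41 tested members of the TGF-beta, BMP and activin list 22 were higher and 7 lower, with a median difference of 0.49. Genes lower in T11 included the ligand gene Bmp4 (-3.06) and the coreceptor gene Tgfbr3 (-2.28), and Ltbp4, Ltbp1, Bmp1 and Smad3 were also lower. Among ligands higher in T11, *Bmp2* stood at 76.5, 80.6 and 63.9 CPM in the T11 libraries and at 1.98, 1.87 and 1.37 CPM in the AT3 libraries, a difference of 5.37 ± 0.22. The activin subunit gene *Inhba* stood at 35, 32.5 and 29.3 CPM in the T11 libraries and at 1.32, 1.01 and 2.73 CPM in the AT3 libraries, a difference of 4.34 ± 0.23. *Tgfb1* stood at 38.2, 37.9 and 38.3 CPM in the T11 libraries and at 7.94, 7.21 and 7.51 CPM in the AT3 libraries, a difference of 2.34 ± 0.16. No AT3 library reached the lowest T11 library for any of these ligands. Bmp2 was higher in T11 than in any other line. The activin antagonist gene *Fst* stood at 87.7, 73.4 and 68.1 CPM in the T11 libraries and at 3.31, 3.03 and 3.19 CPM in the AT3 libraries, a difference of 4.59 ± 0.17. Ctgf, a target of TGF-beta and YAP that encodes a matricellular protein, stood at 62, 58.3 and 51.6 CPM in the T11 libraries and at 3.75, 3.31 and 3.41 CPM in the AT3 libraries, a difference of 4.04 ± 0.17.

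Targets of YAP and TEAD, which respond to cell spreading and matrix stiffness, were called higher for 16 of 27 members and lower for 3, with a median of 0.68. The matricellular gene Cyr61 (1.80 ± 0.12), the RNA-binding protein gene Rbms3 (1.94 ± 0.16) and Fjx1 (2.48 ± 0.34) were among the higher ones. AP-1 and immediate early genes were higher for 19 of 32 members and lower for 3, with a median of 0.67. They included the zinc finger factors Egr1 (2.63 ± 0.29) and Klf2 (2.54 ± 0.27) and the survival gene Ier3 (2.08 ± 0.14). Ier5 went the other way, a difference of -1.68 ± 0.13. *Ier5* was counted at 64.1, 82.6 and 84.6 CPM in AT3 and at 25.1, 21.1 and 27.4 CPM in T11 cells, and T11 was the lowest of the 8 lines for it.

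Interferon response genes were higher in T11. Of 40 tested members 21 were higher and 5 lower, with a median of 0.69. *Isg15* stood at 27.6, 35.5 and 32.2 CPM in the T11 libraries and at 0.661, 0.576 and 0.91 CPM in the AT3 libraries, a difference of 5.45 ± 0.28. Isg15 encodes a ubiquitin-like antiviral protein. *Oasl1* stood at 94.8, 113 and 108 CPM in the T11 libraries and at 2.2, 2.45 and 2.28 CPM in the AT3 libraries, a difference of 5.48 ± 0.18; it encodes a member of the oligoadenylate synthetase family. In T11 cells *Ifit1* measured 79.7, 76.4 and 76.2 CPM, against 3.31, 5.19 and 2.28 CPM in AT3 cells, a difference of 4.33 ± 0.18. Ifit1 binds foreign RNA. The chemokine gene *Cxcl10* stood at 17.4, 13.5 and 16.1 CPM in the T11 libraries and at 2.42, 1.59 and 0.91 CPM in the AT3 libraries, a difference of 3.23 ± 0.30. T11 ranked first among the 8 lines for Oasl1, Ifit1 and Cxcl10 and second for Isg15, and AT3 ranked seventh or last for all 4.

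The promoters of 3 of these genes are shown because their transcripts moved together, with matches to a spaced interferon-stimulated response element, GAAA, any 2 bases and GAAA, or on the other strand TTTC, any 2 bases and TTTC, in capitals. Each is 250 bases before to 50 bases after the RefSeq gene start, written 5′ to 3′ on the strand of the gene, build GRCm38.p6.
Isg15 (chr4:156200769-156201068, strand -): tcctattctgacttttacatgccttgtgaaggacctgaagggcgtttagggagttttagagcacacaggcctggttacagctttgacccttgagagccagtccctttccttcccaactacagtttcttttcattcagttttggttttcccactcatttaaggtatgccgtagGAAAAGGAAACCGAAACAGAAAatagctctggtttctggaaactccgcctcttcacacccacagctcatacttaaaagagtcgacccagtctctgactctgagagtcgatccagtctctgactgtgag
Ifit1 (chr19:34640639-34640938, strand +): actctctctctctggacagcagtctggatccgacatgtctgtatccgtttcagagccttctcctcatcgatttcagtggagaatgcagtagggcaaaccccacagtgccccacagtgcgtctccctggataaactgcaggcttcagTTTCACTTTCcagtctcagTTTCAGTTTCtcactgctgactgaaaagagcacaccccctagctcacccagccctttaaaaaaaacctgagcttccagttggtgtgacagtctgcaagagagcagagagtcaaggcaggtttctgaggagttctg
Oasl1 (chr5:114922990-114923289, strand +): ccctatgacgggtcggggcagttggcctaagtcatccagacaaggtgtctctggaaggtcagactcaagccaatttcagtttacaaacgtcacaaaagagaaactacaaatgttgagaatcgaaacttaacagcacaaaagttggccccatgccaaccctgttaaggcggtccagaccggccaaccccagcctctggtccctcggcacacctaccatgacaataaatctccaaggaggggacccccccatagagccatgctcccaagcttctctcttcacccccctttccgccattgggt
The Isg15 window held 3 overlapping matches, the first 78 bases before the start, and the Ifit1 window held 2, the first 104 bases before it. The Oasl1 window held none. Of all 27025 genes with a window 3.99% held a match, as did 19 of the 29 interferon list members with a window: 13 of the 18 that were called higher in T11 and 6 of the other 11. A match describes letters in these windows and shows no factor bound there.

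MHC class I genes were split. Of 18 tested members 8 were higher and 6 lower in T11, but 6 and 7 when the TMM factors came from genes above background. *H2-K1* stood at 53.7, 47.2 and 43.5 CPM in the T11 libraries and at 3.75, 3.75 and 3.87 CPM in the AT3 libraries, a difference of 3.67 ± 0.17. In T11 cells *H2-M3* measured 32.1, 36.1 and 33.6 CPM, against 4.63, 3.75 and 5.01 CPM in AT3 cells, a difference of 2.95 ± 0.19. Both encode class I heavy chains. The peptide transporter gene *Tap2* stood at 3.86, 4.81 and 4.73 CPM in the T11 libraries and at 15.7, 14.3 and 18 CPM in the AT3 libraries, a difference of -1.82 ± 0.24. The proteasome activator gene Psme2 was likewise lower in T11 (-1.36 ± 0.16). H2-D1 had overlapping libraries and a difference of 0.45 ± 0.17 that was no longer called with DESeq2 (0.47), without T11 library 2 (0.25), without AT3 library 1 (0.33) or with factors from, or only, genes above background (0.31). The class I genes differ between strains and resemble each other, so reads aligned to 1 reference may have been placed unequally; this was not tested.

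The Cdkn2a and Cdkn2b genes, which encode the cell cycle inhibitors p16, p19 and p15, had no count in any AT3 library. In T11 the 3 libraries held 39, 62 and 37 counts of Cdkn2a and 97, 81 and 56 counts of Cdkn2b. Against a floor of 3 counts over the 3 AT3 libraries, Cdkn2a was at least 85.9-fold and Cdkn2b at least 145-fold higher in T11. The genes lie side by side on chromosome 4, at 89274471 to 89294653 and 89306299 to 89311039 (mm10). Mtap, the next gene on one side in the table, was expressed in both lines, and so was Klhl9 farther off: *Mtap* stood at 518, 505 and 475 CPM in the T11 libraries and at 237, 263 and 297 CPM in the AT3 libraries. AT3 held 2414 counts of Klhl9. Dmrta1, the neighbour on the other side, was low in both lines, with 50 counts in AT3 (mean 3.12 CPM) and 11 in T11 (mean 1.27 CPM). So few counts do not show whether that side was expressed above background. Both Cdkn2 genes were counted in T11, 2208L and 67NR and had 0 counts in all 15 libraries of AT3, E0771, PyMT-M, PyMT-N and 4T1. Counts of RNA do not show whether DNA is absent.

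Trp53 and several of its targets were lower in T11. *Trp53* was counted at 73.8, 88.8 and 99 CPM in AT3 and at 27.3, 33.1 and 24.1 CPM in T11 cells, a difference of -1.61 ± 0.13. The transcript was thus present in T11 cells, and counts per gene do not show which exons the reads cover. Of 37 tested p53 targets 16 were lower and 8 higher, with a median of -0.48. The cell cycle inhibitor gene *Cdkn1a* was counted at 29.5, 29 and 32.1 CPM in AT3 and at 8.68, 10.2 and 9.94 CPM in T11 cells, a difference of -1.65 ± 0.18. The cyclin gene *Ccng1* was counted at 258, 297 and 333 CPM in AT3 and at 71.7, 66.2 and 53.9 CPM in T11 cells, a difference of -2.20 ± 0.10. Each T11 library lay below each AT3 library for these 3 genes. The targets Perp (2.39 ± 0.28) and Pmaip1 (1.75 ± 0.26), a desmosomal protein gene and a proapoptotic gene, were higher in T11. Mdm2, the p53 ubiquitin ligase, had overlapping libraries and a difference of 0.10 ± 0.12 that was not called and turned below 0 with factors from genes above background.

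**Figure D3:**
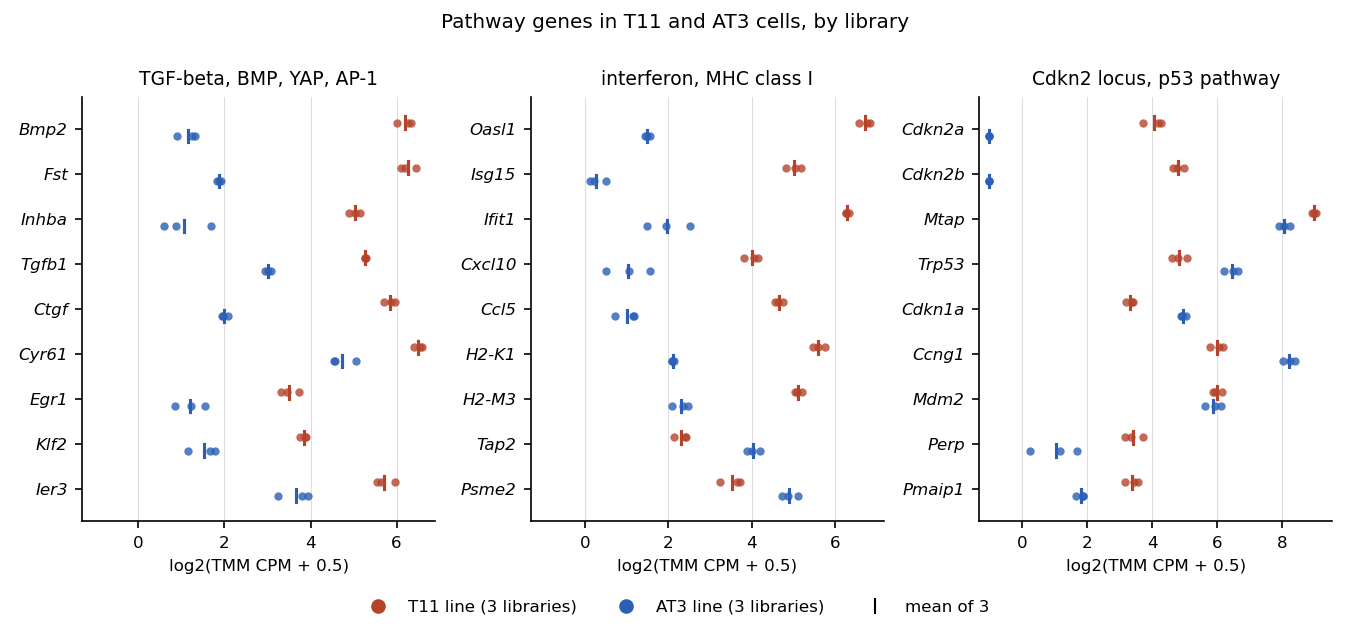
Points are libraries (T11 red, AT3 blue), bars are means of 3, and the horizontal axes are log2 of CPM plus 0.5, with a CPM of 0 at -1. The lines do not overlap for any gene shown apart from Mdm2, and Cdkn2a and Cdkn2b are at 0 in each AT3 library.

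Epithelial transcripts were low in both lines, although the column names mark AT3 as Epi. The summed level of 33 epithelial genes was 235 to 252 CPM in T11 and 195 to 223 CPM in AT3. AT3 lay below all 3 other lines marked Epi for 30 of the 33 genes, and T11 for 31. The median member stood at 4.23 CPM in AT3 and 4.12 in T11, against 58.8 CPM in the lowest of the other Epi lines. Of the 33 genes 2 were higher and 6 lower in T11, and 25 were not called. Epcam was at 4.5, 2.11 and 1.42 CPM in T11 and 2.42, 2.31 and 1.82 CPM in AT3 libraries, which overlap. Cdh1, the E-cadherin gene, likewise overlapped and was not called (-0.45 ± 0.21), though it was called with factors from genes above background (-0.60) or without AT3 library 3 (-0.61). The keratin pair Krt8 and Krt18 split: in T11 cells *Krt8* measured 1.93, 1.8 and 1.42 CPM, against 13.9, 13.4 and 15.2 CPM in AT3 cells, a difference of -2.98 ± 0.28, while Krt18 was higher in T11 (1.14 ± 0.12). Their products normally form 1 filament together.

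Mesenchymal genes were expressed in both lines and leaned to T11, with 17 of 28 members higher and 4 lower and a median of 0.49. Their summed level was 5598 to 5997 CPM in T11 and 3243 to 4305 CPM in AT3. Vimentin led: *Vim* stood at 2928, 2905 and 2822 CPM in the T11 libraries and at 1436, 1749 and 1920.05 CPM in the AT3 libraries, a difference of 0.76 ± 0.08. The homeobox gene Prrx2 was also higher (2.77 ± 0.20). The matrix proteoglycan gene *Dcn* was counted at 67.5, 81.6 and 89 CPM in AT3 and at 6.43, 6.32 and 6.62 CPM in T11 cells, a difference of -3.62 ± 0.19. The repressor gene Zeb1 (0.16 ± 0.11) and the fibronectin gene Fn1 (-0.15 ± 0.09) had overlapping libraries and were not called; Fn1 passed as lower in T11 with factors from genes above background (-0.28), and Zeb1 as higher without AT3 library 3 (0.29). Of 41 collagen and structural matrix genes 15 were higher and 12 lower, or 15 and 15 with factors from genes above background, and the median over all 41 was below 0 (-0.02). *Col1a2* stood at 465, 424 and 433 CPM in the T11 libraries and at 25.8, 22.3 and 19.8 CPM in the AT3 libraries, a difference of 4.28 ± 0.11, and the collagen chain genes Col6a3 (3.58 ± 0.11) and Col5a2 (2.91 ± 0.13) and the gelatinase gene Mmp2 (3.81 ± 0.18) followed it. Of 5 tested fibroblast markers 3 were lower in T11 (Dpt, Dcn and Lum), Pi16 was not called and Pdgfra was called higher (0.36) with overlapping libraries, a call lost without T11 library 1 (0.31), T11 library 2 (0.38) or AT3 library 2 (0.22), with the 6 libraries only (0.31) or with factors from genes above background (0.23). The 6 listed markers summed to 167 to 212 CPM in AT3 against 34.5 to 36.3 CPM in T11. Leukocyte markers summed to 33.4 to 45.0 CPM in T11 and 41.9 to 53.3 CPM in AT3. None of the 12 leukocyte or 6 fibroblast markers was at 0 in either line; the part of other cells in these levels was not tested.

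Signals that attract macrophages were mostly higher in T11, with 6 of 11 tested members higher and 1 lower. Csf1, the macrophage growth factor gene, was 155, 161 and 130.1 CPM in T11 and 55.3, 70.8 and 74 CPM in AT3 libraries, a difference of 1.16 ± 0.11. *Ccl5* stood at 23.1, 24.1 and 26.5 CPM in the T11 libraries and at 1.76, 1.73 and 1.14 CPM in the AT3 libraries, a difference of 3.93 ± 0.30. The chemokine genes Cxcl12 (2.45 ± 0.16) and Cx3cl1 (1.77 ± 0.16) and the angiogenic factor gene Vegfa (1.54 ± 0.13) were also higher. The exception was the monocyte chemokine gene Ccl2: *Ccl2* was counted at 74.3, 73.5 and 77.6 CPM in AT3 and at 36.3, 32.5 and 38.8 CPM in T11 cells, a difference of -1.08 ± 0.12. Signals that attract neutrophils were low in both. Of 15 tested members none was higher and 3 were lower in T11, against 21.5% and 16.9% of all tested genes. The count of lower members was thus near the general share, and only 1 of the 15 was above background. The neutrophil chemokine gene *Cxcl5* was counted at 5.29, 7.78 and 9.33 CPM in AT3 and at 2.89, 2.11 and 1.42 CPM in T11 cells, a difference of -1.74 ± 0.35. Cxcl1, at 4.19, 5.04 and 3.19 CPM in AT3 and 2.25, 1.8 and 2.37 CPM in T11 cells, was called lower in T11 but lost its call without T11 library 1 (-1.05), T11 library 2 (-0.87) or AT3 library 2 (-0.79), and with DESeq2 (-0.98). Csf3, the granulocyte growth factor gene, had no T11 library above 1.8 CPM and no AT3 library above 0.882 CPM. The checkpoint ligand gene *Cd274* was counted at 9.04, 7.78 and 9.33 CPM in AT3 and at 4.18, 3.91 and 3.79 CPM in T11 cells, a difference of -1.11 ± 0.28, while Cd200 (2.16 ± 0.33) and Pvr (1.77 ± 0.13) were higher in T11.

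Cholesterol synthesis genes were higher in T11 for 15 of 25 members and lower for 2, by modest amounts. The sterol enzyme genes Msmo1 (1.02 ± 0.10), Idi1 (0.94 ± 0.19), Mvk (0.93 ± 0.18) and Cyp51 (0.83 ± 0.10) were among them, and AT3 was the lowest or second lowest of the 8 lines for these 4. Proliferation genes were split, with 10 higher and 13 lower of 30. The replication genes Mcm6 (-1.09 ± 0.09), Mcm3 (-0.88 ± 0.09) and Pcna (-0.82 ± 0.09) were lower in T11 and highest of all lines in AT3, whereas the mitotic cyclin gene Ccna2 was higher in T11 (0.82 ± 0.09). Hox genes, which record position along the body axis, were higher for 13 of 26 members and lower for 4. *Hoxa9* stood at 44.7, 48.4 and 45.4 CPM in the T11 libraries and at 3.75, 4.32 and 2.28 CPM in the AT3 libraries, a difference of 3.69 ± 0.22, and Hoxa10 moved alike (2.68 ± 0.19). *Hoxd10* was counted at 7.49, 10.1 and 7.96 CPM in AT3 and at 0.964, 0.902 and 0.473 CPM in T11 cells, a difference of -3.35 ± 0.41, and Hoxd9 went with it (-3.11 ± 0.41). Antisense genes run through these clusters, and without strand information their reads cannot be told apart. Xist, the RNA of the inactive X chromosome, was found in both lines: *Xist* stood at 619, 698 and 669.6 CPM in the T11 libraries and at 194, 219.9 and 269.9 CPM in the AT3 libraries, a difference of 1.54 ± 0.10.

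The share of called genes varied between chromosomes. Among the 8816 tested genes above background 56.8% were called; 36.9% were called higher and 19.9% lower in T11, and the median difference was 0.12. With factors from these genes the lean to T11 went, with 30.2% higher and 29% lower and a median of -0.02; fitting these genes alone gave 2776 higher and 2701 lower. Chromosome 3 had 65.6% of its 425 genes higher and 6.12% lower, with a median of 0.61. Chromosome 5 had 60.2% of 528 genes higher and chromosome 12 had 57.3% of 316. Chromosome 14 leaned the other way, with 45.1% of 288 genes lower and 13.9% higher and a median of -0.29, followed by chromosome 1, with 42.6% of 505 lower, and chromosome 19, with 38.6% of 342 lower. With factors from genes above background the same chromosomes stood out: chromosome 3 had 61.2% higher and 9.88% lower, chromosome 5 52.5% higher, chromosome 12 52.8% higher, chromosome 14 55.6% lower, chromosome 1 55.4% lower and chromosome 19 55% lower. The window of 25 neighbouring genes with the highest median, 1.49, lay on chromosome 3 between 51224447 and 58593133 (mm10), and the one with the lowest, -1.21, on chromosome 14 between 101653967 and 122984035. The Pik3ca gene on chromosome 3, which encodes the catalytic subunit of a growth signalling kinase, was highest in T11 and lowest in AT3 among the 8 lines: *Pik3ca* stood at 258, 249 and 244 CPM in the T11 libraries and at 87.7, 94 and 98.1 CPM in the AT3 libraries. Copy number of DNA was not measured here.

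Some genes set T11 and AT3 together apart from the other lines. In a contrast of the pair against the mean of the other 6 lines, 3633 genes were called higher (19.8% of those tested) and 4353 lower (23.7%). All 6 libraries of the pair lay above all 18 others for 90 called genes (0.491%) and below them for 102 (0.556%). For E0771 and PyMT-M, the closest pair, the same counts were 757 and 424. The growth factor gene Ptn, which encodes pleiotrophin, stood at 125 ± 6.29 CPM in T11 and 143 ± 19.5 CPM in AT3 (SD, n = 3 libraries), and no other line had a mean above 2.81 CPM. The Wnt inhibitor gene Dkk2 was 207 ± 4.42 CPM in T11 and 176 ± 19.6 CPM in AT3, against at most 5.96 CPM elsewhere. Thbs2, a thrombospondin gene, was 169 ± 5.97 CPM in T11 and 254 ± 21.3 CPM in AT3, against at most 15.3 CPM. All 3 genes encode secreted proteins. The neuritin gene Nrn1, the retinoid carrier gene Crabp1, the fibulin gene Efemp1, the serpin gene Serpinf1, Pde3b, Dpysl3 and the imprinted gene Peg10 completed the 10 highest. Among genes low in both lines, the transglutaminase gene Tgm2 had 6.08 ± 0.58 CPM in T11 and 8.61 ± 1.17 CPM in AT3, against at least 27.5 CPM elsewhere. H2-D1 had 30.9 ± 6.79 and 22.7 ± 4.18 CPM, against at least 89.7 CPM. The tetraspanin gene Cd82 had 6.57 ± 0.937 and 4.96 ± 0.598 CPM, against at least 12.9 CPM. The shared genes were chosen because all 6 libraries of the pair lay above or below all 18 others. The place of the pair among the lines follows from that choice.

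**Figure D4:**
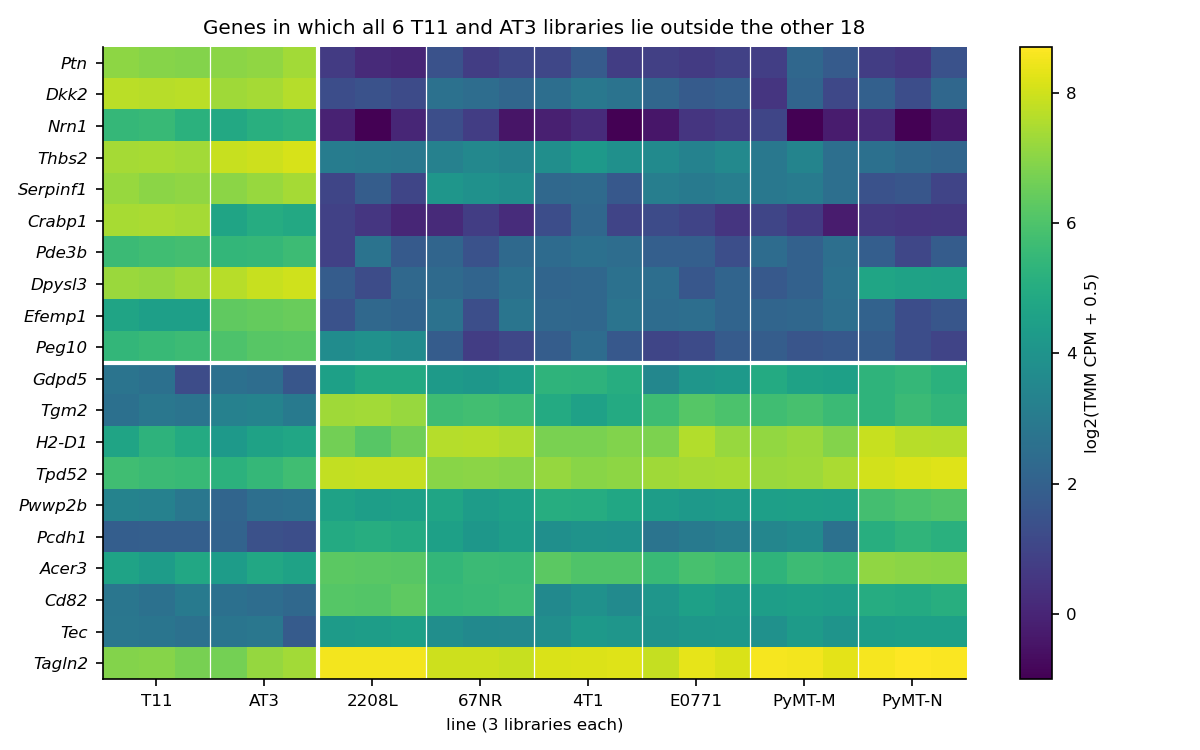
Colour gives log2 of CPM plus 0.5 for each of 24 line libraries (columns, 3 a line) and the 10 highest and 10 lowest genes in which all 6 T11 and AT3 libraries lie outside the other 18 (rows). The 2 lines on the left are bright in the upper rows, as for Ptn, and dark in the lower rows, as for Tgm2.

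Myeloid cells sorted from the 2 tumours gave libraries that the choice of the pair did not use. In tumour macrophages edgeR called 1996 of 14715 tested genes (13.6%), 906 higher (6.16%) and 1090 lower (7.41%) in T11. In neutrophils it called 2548 of 18158 (14%), 651 higher (3.59%) and 1897 lower (10.4%). The neutrophil values rest on libraries with much background: receptor genes took 13080 to 18994 CPM in T11 and 6381 to 12667 in AT3 neutrophils, against 876 to 1766 in the macrophages. These receptor levels again leave out Rn45s and TMM factors. The TMM factors were 1.53 to 2.21 in T11 and 0.46 to 1.21 in AT3 neutrophils. The gap between T11 and AT3 receptor levels is therefore not one in TMM-scaled CPM. With factors from genes above background the neutrophil split turned to 9761 higher and 309 lower, so directions there depend on the scaling, and macrophages are given first. The ribosomal RNA gene Rn45s also took a median of 39.0% of counts in T11 and 65.2% in AT3 neutrophils, and 66.2% to 76.2% over the macrophages of both. With Rn45s left out of the counts, 17202 genes were tested in neutrophils, of which 700 were called higher and 1850 lower. In macrophages 13933 were tested, of which 890 were called higher and 1144 lower.

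Several genes differed in tumour macrophages in the same direction as in the lines. The 4 given first come from genes selected for being called alike in lines, neutrophils and macrophages without overlap. Their agreement follows from that selection, and their p-values are descriptions. The ribosomal protein gene Rpl29 was 15.1, 19.2 and 13.2 CPM in T11 lines and 252, 309.7 and 329 CPM in AT3 lines. In macrophages it was 8.57 ± 1.48 CPM in T11 and 96.8 ± 7.41 CPM in AT3 tumours (SD, n = 3), a difference of -3.50 ± 0.29 (edgeR adjusted p = 7.6e-11). Ribosomal protein genes have many processed copies, so its reads may have been split. In the lines labelled BALB/C (T11, 2208L, 4T1 and 67NR) the mean of Rpl29 was 10.7 to 15.9 CPM. In those labelled C57BL/6 (AT3, E0771, PyMT-M and PyMT-N) it was 204 to 297 CPM. Whether reads of the 2 strains aligned unequally to 1 reference was not tested. Ifi202b, an interferon-induced DNA sensor gene, was 49.8 ± 5.57 CPM in T11 and 2.61 ± 0.356 CPM in AT3 lines, and 36.2 ± 5.49 against 0.28 ± 0.265 CPM in macrophages (edgeR adjusted p = 1.2e-10). The inflammasome pseudogene Nlrp1c-ps was 0.358 ± 0.317 against 5.88 ± 1.66 CPM in lines and 0.407 ± 0.172 against 33.8 ± 5.24 CPM in macrophages (edgeR adjusted p = 2.3e-11). Trim12a, an antiviral family gene, had 0 counts in all T11 libraries of the lines, neutrophils and macrophages, against 2.2, 2.31 and 0.91 CPM in the AT3 line and 4.38, 2.9 and 7.09 CPM in AT3 macrophages. For 8 of the 12 genes with the largest line differences that were shared by all 3 kinds of cells, these 4 among them, the means of T11 and 2208L lay on 1 side of those of AT3 and E0771 in every kind; for Tmem176a, Tmem176b, Igfbp4 and H2-DMb1 they did not. In macrophages of 2208L tumours, labelled BALB/C, Rpl29 was 5.76 ± 2.72 CPM, Ifi202b 25 ± 6.27, Nlrp1c-ps 0.42 ± 0.379 and Trim12a 0 CPM. In E0771 macrophages, labelled C57BL/6 for 2 libraries and BALB/C for library 1, the values were 76.4 ± 10.4, 0.846 ± 0.892, 21.1 ± 1.19 and 8.14 ± 4.05 CPM in the same order. Tumour and strain cannot be told apart between T11 and AT3. Over all 3 kinds of cells, 91 of 14250 genes were called in the same direction with no overlapping libraries, 11 higher (0.0772%) and 80 lower (0.561%) in T11. Of the 91, 26 were above background in all 3 kinds; Trim12a was so in none. With factors from genes above background the counts turned to 143 higher and 15 lower.

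Rhox5 and Igfbp4, both far lower in the T11 line, were low in T11 macrophages as well. Both are also among the 12 genes selected for being called alike in all 3 kinds of cells, so their values are descriptions. Rhox5 was 0, 0 and 0.293 CPM in the T11 and 4.69, 3.42 and 2.73 CPM in the AT3 macrophage libraries (edgeR adjusted p = 0.00066). Igfbp4 was 6.23 ± 1.19 against 20.9 ± 1.94 CPM (edgeR adjusted p = 0.00087). Whether tumour RNA reached the sorted cells was not tested. Over all genes tested in macrophages 6.16% were called higher and 7.41% lower in T11, and the macrophage counts that follow stand beside these shares. Of the genes at least 8-fold lower in the T11 line without overlap, 38 were tested in macrophages, where 15 were lower and none higher in T11 (39.5% of those tested). Of the genes at least 8-fold higher in the line without overlap, 62 were tested, and 10 were higher and 10 lower (16.1% each). Interferon response genes were higher in T11 macrophages for 24 of 40 members and lower for 2, with a median of 1.19. In neutrophils, where directions depend on the scaling, 0 of 40 were higher and 11 lower in T11, with a median of -0.41. The shares over all genes tested in neutrophils were 3.59% higher and 10.4% lower. Ifit1 was 32.1 ± 10.6 CPM in T11 and 4.68 ± 1.88 CPM in AT3 macrophages (edgeR adjusted p = 5.7e-07), Oasl1 61.2 ± 9.83 against 10.6 ± 3.16 CPM (edgeR adjusted p = 1.7e-08) and Isg15 16.3 ± 3.52 against 7.27 ± 4.6 CPM (edgeR adjusted p = 0.031). AP-1 and immediate early genes, by contrast, were lower in T11 macrophages for 13 of 32 members and higher for 4, and of the TGF-beta, BMP and activin list 7 of 27 members were lower and 1 higher. Thbs1, a matrix glycoprotein gene, stood at 23.4 ± 11.4 CPM in T11 and 1966 ± 264 CPM in AT3 macrophages (edgeR adjusted p = 1.9e-12), whereas in the lines *Thbs1* stood at 383, 367 and 363 CPM in the T11 libraries and at 52.9, 55.3 and 64.4 CPM in the AT3 libraries. Of 47 named genes called in both the lines and the macrophages, 26 had the same and 21 the opposite direction; 4 of the 47 are also among the 12 genes shared by all 3 kinds of cells. Over all genes at least 2-fold higher in the T11 line without overlap, 104 of 929 were called in the same direction in macrophages (11.2%) and 103 in the opposite one (11.1%), and over those at least 2-fold lower 112 of 759 (14.8%) and 36 (4.74%). The difference between lines and macrophages was not tested.

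**Figure D5:**
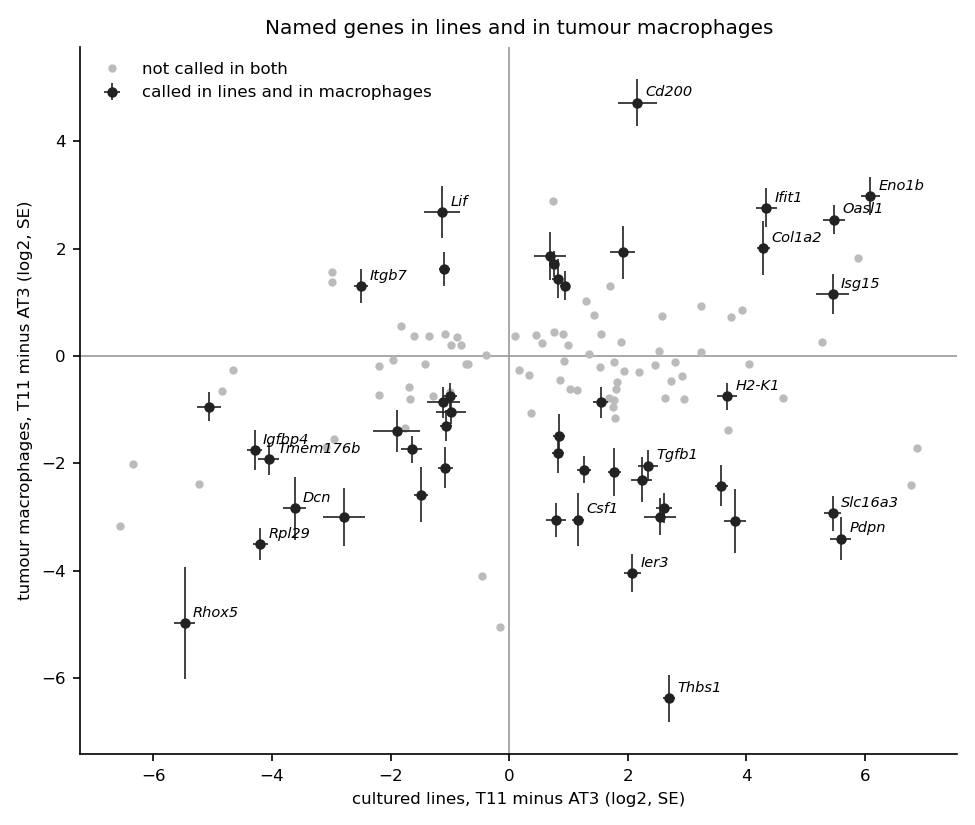
Each point is a named gene tested in both kinds of sample, with the T11 minus AT3 log2 difference in lines on the horizontal axis and in tumour macrophages on the vertical axis; black points were called in both and carry SE bars. Of the 47 black points 26 lie in the quadrants of equal sign, with Oasl1 and Ifit1 high in both, and 21 in those of opposite sign, with Thbs1 the lowest. Of all genes at least 2-fold higher in the T11 line without overlap and tested in macrophages, 11.2% were called alike there and 11.1% oppositely. Of those at least 2-fold lower, 14.8% were called alike and 4.74% oppositely. These are shares of genes tested, whereas the 47 points are genes called in both.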

How the data were processed

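Total RNA of 48 libraries was sequenced, and the authors deposited 1 table of raw read counts per gene. Per the submitters' processing notes, bcl2fastq 2.17, STAR 2.4.2a and build mm10 were used; the counting program, annotation and strand setting are not given in the sources used here. Without strand, overlapping genes cannot be told apart.

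The 24 line libraries were fitted together with edgeR 4.0.16 (quasi-likelihood, TMM factors, filterByExpr with a minimum count of 10 and total of 15, Benjamini-Hochberg adjustment), and the 12 neutrophil and 12 macrophage libraries likewise. The column marked PyMTE was taken as PyMT-N. Columns of the table were matched to samples by name. Genes above background had a mean level per base at least 10 times that of 1459 olfactory and vomeronasal receptor genes; this was chosen after seeing the data. Floors of 3 counts cover counting error only. p-values measure the spread between libraries.

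Named genes were the 12 largest called differences each way with mean log2 CPM of at least 4 and no overlap, up to 4 called members per list, a few markers, the 10 shared genes each way and the 12 sorted-cell genes. Items withheld from this text are not reported here. Klhl9, Dmrta1, the named lower TGF-beta list members and the fibroblast markers Lum and Pi16 were chosen after their values were seen. The pair, members and lists were chosen with earlier results of these data known. Alternatives were RLE factors, DESeq2 1.42.0, other filters, other scaling, the replicate block and leaving out each library. The fit was tested on simulated data. Promoter windows came from RefSeq.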

Additional observations from a re-analysis of the deposited data

Results flagged for a closer look

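In 21 named genes the 3 T11 libraries lay on 1 side of the 3 AT3 libraries in cultured cells and on the other side in tumour macrophages, and the gene was called in both. The difference between lines and macrophages was itself not tested. Of these genes, 18 were higher in the T11 line and lower in T11 tumour macrophages, with the following log2 differences in macrophages: Thbs1 (-6.38), Ier3 (-4.05), Pdpn (-3.40), Mmp2 (-3.08), Slc7a11 (-3.06), Csf1 (-3.05), Klf2 (-2.99), Slc16a3 (-2.93), Plaur (-2.83), Col6a3 (-2.42), Gas6 (-2.30), Itga3 (-2.15), Itgb5 (-2.12), Tgfb1 (-2.04), Ptgs2 (-1.80), Cyp51 (-1.48), Vegfa (-0.87) and H2-K1 (-0.75). The other 3 were lower in the T11 line and higher in T11 tumour macrophages: Lif (2.68), Mcm6 (1.62) and Itgb7 (1.30). The line call of Lif was lost without T11 library 2 (-0.83). The matrix and receptor genes among them include Thbs1, Mmp2, Col6a3, Plaur and 3 integrin chains, and the secreted factors include Csf1, Tgfb1, Gas6 and Vegfa. In the same macrophage libraries 6 fibroblast markers summed to 5.10 to 9.97 CPM in T11 and 26.6 to 47.7 CPM in AT3, with none at 0 in either group; 3 of 5 tested were lower in T11 (Lum, Dcn and Pi16). Of 40 collagen and structural matrix genes 18 were lower and 2 higher, against 7.41% and 6.16% of all genes tested in macrophages. In those libraries the 33 epithelial genes summed to 48.3 to 62.3 CPM in T11 and 141 to 156 CPM in AT3. The 8 endothelial markers summed to 19.9 to 31.2 CPM in T11 and 17.5 to 21.9 CPM in AT3. The sum of the 6 fibroblast markers was also higher in the cultured AT3 line, at 167 to 212 CPM against 34.5 to 36.3 CPM in T11. Of the 5 markers tested between the lines 3 were lower and 1 higher in T11. The part of RNA from fibroblasts or other cells in these values was not tested.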

How the results depend on the processing

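Between the lines, no alternative moved the count of called genes by over 1.5 times, and leaving out 1 library at a time gave 5776 to 7060 genes. Leaving out 1 neutrophil library gave 279 to 1720 genes higher, 1070 to 3016 lower and 1426 to 4736 either way, with 4736 without AT3 library 1, 1426 without T11 library 2, 1493 without T11 library 3 and 1450 without AT3 library 2. Fitting the 6 neutrophil libraries only gave 236 higher, 902 lower and 1138 in all. DESeq2 called 392 higher. TMM factors from genes above background gave 9761 higher, 309 lower and 10070 in all, and fitting genes above background only gave 219, 266 and 485. In macrophages, leaving out 1 library gave 574 to 755 genes higher, the fewest without AT3 library 2, and the 6 libraries only gave 1637 lower. Counts of genes called alike in lines, neutrophils and macrophages turned from 11 higher and 80 lower to 143 and 15 with factors from genes above background. Genes above background only gave 2836 lower in the pair against the other lines. The cause of these moves was not tested, apart from the fewer genes or libraries that an alternative holds.

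Some log2 differences of T11 minus AT3 changed sign. Leaving out 1 library at a time gave ranges of -0.2443 to 0.5700 for Epcam (lowest without T11 library 1), -0.9182 to 0.7045 for Csf3 (T11 library 2) and -0.0086 to 0.2258 for Mdm2 (AT3 library 1). Among genes that set both lines apart, the ranges were -0.1805 to 0.0001 for Serpinf1, -0.1324 to 0.3747 for Gdpd5, -0.1306 to 0.1262 for Acer3 and -0.0375 to 0.4286 for Tec. With factors from genes above background Mdm2 was -0.0325, as it was with those genes only, and Gdpd5 was -0.043. In neutrophils that scaling turned Tmem176b to 0.0656, Tmem176a to 0.10, Pdlim2 to 0.11 and Sh3bp5 to 0.26.

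Deviations of same-numbered line libraries correlated at 0.049, 0.058 and -0.093, and those of differently numbered ones at -0.175 to 0.145. These values show no pairing by number, but they cannot show whether libraries shared a preparation. With the replicate block 7017 genes were called between the lines, 3935 higher and 3082 lower. At depths of 2058329 to 6185535 counts, a gene at 0 in a line may still be expressed below 3 counts in its 3 libraries.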
